A study of Mus musculus with 30 samples.

Results

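A set of 62 spliced protein-coding genes was detected in nearly all *Dis3* null embryos and in a minority of wild-type (WT) and heterozygous (Het) embryos. These genes were selected on the measured counts themselves. A gene of the GENCODE vM21 annotation was taken when it was protein-coding, had a transcript of at least 2 exons, had a median raw count of 0 over the 16 WT and Het embryos and had a raw count above 0 in at least 6 of the 7 Null embryos. Olfactory (Olfr) and vomeronasal (Vmn) receptor genes were left out. The 62 genes came from 19374 spliced protein-coding genes so defined, of 55487 genes counted in all, and 7730 of the 19374 had a median of 0 in the WT and Het embryos. Because the null, Het and WT counts chose the genes, their differences between null embryos and the others are given as a description. Fold changes and calls of these contrasts are printed beside those over all genes, and nothing is read from them.

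The embryos came from matings of *Dis3*+/- mice, in which exons 3 to 5 of *Dis3* had been deleted with CRISPR-Cas9, and each library was made from the polyadenylated RNA of 1 embryo. At E2.5 there were 6 WT, 2 Het and 4 Null embryos, and at E2.75 3 WT, 5 Het and 3 Null embryos. All mothers were Het and hormonally stimulated, so *Dis3* product laid down in the egg could be present in every group. How much of it remained at E2.5 and E2.75 was not measured apart from the embryo's own. Chromatin data came from mouse embryonic stem cells (mESCs) derived from *Dis3* flox/flox blastocysts, 48 h after transfection with a POU6F1-mCherry plasmid, with 2 replicates of the anti-mCherry precipitation. POU6F1 was therefore overexpressed there and in another cell type than the embryo.

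DIS3 is a catalytic subunit of the RNA exosome, the complex that trims and degrades RNA from its 3′ end in the nucleus and the cytoplasm. Its known substrates include short-lived transcripts that start at or near promoters, in antisense or divergent orientation, and RNA that runs past the end of a gene. Spliced coding genes that an early embryo does not normally use, such as those of blood, nerve or sperm, are usually silent at the 8-cell to morula stages. Whether a count at such a gene comes from its own promoter, from a neighbour that overlaps it or from a gene that ends just upstream cannot be told from counts per gene that were made without regard to strand. Neighbouring genes are therefore given beside the levels.

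The starts of 7 of these genes are shown first, 4 with a POU6F1 peak near the start, 2 that lie just downstream of an active gene and 1 with neither. The sequences run from 250 bases before the RefSeq start to 20 bases after it, on build GRCm38.p6, 5′ to 3′ along the gene. In the first 4, capitals mark the bases inside a POU6F1 peak called in both mESC replicates. These are *Mapk8ip2*, *Sox30*, *Noxo1* and *Mpig6b*.
Mapk8ip2, chr15:89453661-89453930, plus strand: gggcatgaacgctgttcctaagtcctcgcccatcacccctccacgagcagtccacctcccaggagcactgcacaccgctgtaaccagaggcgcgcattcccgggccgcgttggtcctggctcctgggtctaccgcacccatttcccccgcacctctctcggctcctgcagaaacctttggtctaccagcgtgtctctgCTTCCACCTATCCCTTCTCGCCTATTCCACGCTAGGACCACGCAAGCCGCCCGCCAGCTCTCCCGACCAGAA
Sox30, chr11:45980060-45980329, plus strand: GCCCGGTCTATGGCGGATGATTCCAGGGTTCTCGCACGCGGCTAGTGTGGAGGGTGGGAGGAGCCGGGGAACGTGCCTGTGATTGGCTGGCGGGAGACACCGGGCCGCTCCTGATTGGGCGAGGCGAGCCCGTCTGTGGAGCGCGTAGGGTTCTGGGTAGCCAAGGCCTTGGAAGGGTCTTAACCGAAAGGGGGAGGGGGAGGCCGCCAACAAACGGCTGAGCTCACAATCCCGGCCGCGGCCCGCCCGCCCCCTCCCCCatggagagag
Noxo1, chr17:24695984-24696253, plus strand: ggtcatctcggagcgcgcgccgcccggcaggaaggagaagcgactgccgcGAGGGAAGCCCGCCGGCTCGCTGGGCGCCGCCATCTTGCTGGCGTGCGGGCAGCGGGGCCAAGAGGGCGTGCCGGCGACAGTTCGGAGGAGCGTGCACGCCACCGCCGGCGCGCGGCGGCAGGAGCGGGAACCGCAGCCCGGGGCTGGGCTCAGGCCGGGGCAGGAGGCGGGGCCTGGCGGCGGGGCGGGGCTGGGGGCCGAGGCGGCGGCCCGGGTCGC
Mpig6b, chr17:35066165-35066434, minus strand: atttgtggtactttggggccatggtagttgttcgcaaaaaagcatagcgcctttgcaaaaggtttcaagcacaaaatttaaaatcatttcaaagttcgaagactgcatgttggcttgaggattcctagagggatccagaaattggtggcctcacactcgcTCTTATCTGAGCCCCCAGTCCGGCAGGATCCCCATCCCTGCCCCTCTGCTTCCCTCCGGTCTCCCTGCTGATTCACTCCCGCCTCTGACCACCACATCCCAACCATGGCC
In the next 3, which had no such peak, capitals mark the 20 bases from the start on. *Spib* and *Gp5* lie 675 and 1644 bases downstream of the ends of *Pold1* and *Atp13a3*, which are active in the embryo, and *Clec11a* had no active neighbour.
Spib, chr7:44532052-44532321, minus strand: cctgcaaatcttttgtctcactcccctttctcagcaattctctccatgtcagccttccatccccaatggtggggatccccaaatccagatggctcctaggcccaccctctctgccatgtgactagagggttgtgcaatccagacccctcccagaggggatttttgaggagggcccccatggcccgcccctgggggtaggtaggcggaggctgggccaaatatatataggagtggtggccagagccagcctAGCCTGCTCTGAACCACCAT
Gp5, chr16:30310762-30311031, minus strand: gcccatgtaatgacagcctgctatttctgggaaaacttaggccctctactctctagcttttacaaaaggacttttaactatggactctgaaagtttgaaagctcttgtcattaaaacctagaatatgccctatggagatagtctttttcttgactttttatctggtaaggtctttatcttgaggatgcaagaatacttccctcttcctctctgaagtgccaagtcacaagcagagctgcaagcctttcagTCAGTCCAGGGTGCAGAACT
Clec11a, chr7:44306940-44307209, minus strand: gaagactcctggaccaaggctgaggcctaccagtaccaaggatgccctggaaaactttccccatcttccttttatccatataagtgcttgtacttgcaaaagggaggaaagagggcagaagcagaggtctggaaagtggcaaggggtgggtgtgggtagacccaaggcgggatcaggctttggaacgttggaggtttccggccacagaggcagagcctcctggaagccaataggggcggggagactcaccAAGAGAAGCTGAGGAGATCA
Of the 62 genes, 48 had a promoter in the RefSeq table, and 17 of these (35.4%) had a ratio of observed to expected CpG of at least 0.6 over 300 bases. The share was 23.5% among 5393 other spliced genes that were silent in the WT and Het embryos and 54.8% among 14676 spliced genes. The letters TATAAA, searched on both strands, were found in 5 of the 48 (10.4%), in 16.1% of the other silent spliced genes, in 10.1% of all spliced genes and in 13.6% of the 32851 promoters of the table. The letters AATAAA were found in 6 of the 48 (12.5%), and in 16.65% and 13.14% of the same gene sets. An octamer motif was found in 0 of the 48, and in 1.91% and 1.54% of those sets. The letters AGATAA, a form of the GATA factor motif, were added after the sequences had been read. They were found on either strand in 7 of 48 (14.6%), in 11% and 8.15% of the same gene sets and in 11.2% of the table's promoters. *Mpig6b*, *Gp5* and *Myom1* were among the 7, and the RefSeq start used for *Myom1* lay 16924 bases from its GENCODE start.

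The labels were checked on *Dis3* itself. Scaled by edgeR's trimmed mean of M values (TMM) to counts per 1000000 counted reads (CPM), *Dis3* ranged from 18.0 to 146 CPM in the 9 WT embryos, from 30.2 to 59.0 in the 7 Het and from 0 to 21.3 in the 7 Null embryos. E2.5 WT replicate 6, the lowest WT embryo, lay within the null range, and results are given with and without it. Library totals ran from 1690192 to 9993650 counts in the Null and from 3009380 to 14015980 in the WT and Het embryos. The medians were 4808323 and 8769961, and the ranges overlapped. The 15 markers of the pre-implantation embryo all had a median above 0 over the WT and Het embryos together, though *Sox2* had counts in only 3 of the 9 WT. In the 7 Null embryos, 13 of the 15 had counts in at least 6, *Cdx2* in 5 and *Sox2* in 4. Nothing in the labels says which embryos shared a litter, and any test below measures the spread between single embryos.

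Between 54 and 60 of the 62 genes had counts in each Null embryo, and between 13 and 26 in each WT or Het embryo. The 2 ranges follow from the selection. Thinned to the smallest total, 1690192 counts, the Null embryos held 46 to 56 of the genes and the others 5 to 22, while the number of all spliced genes detected in thinned libraries ran from 9888 to 11713 in Null and from 10079 to 11562 in WT and Het embryos. E2.5 WT replicate 6 held 17 of the 62. Summed over the 62 genes, the counts came to 120 to 323 CPM of the library total in the Null embryos and 9.07 to 49.6 CPM in the others, so that these genes took a small share of every library. In a whole embryo, fewer cells that hold a transcript and less RNA per cell cannot be told apart.

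**Figure D1:**
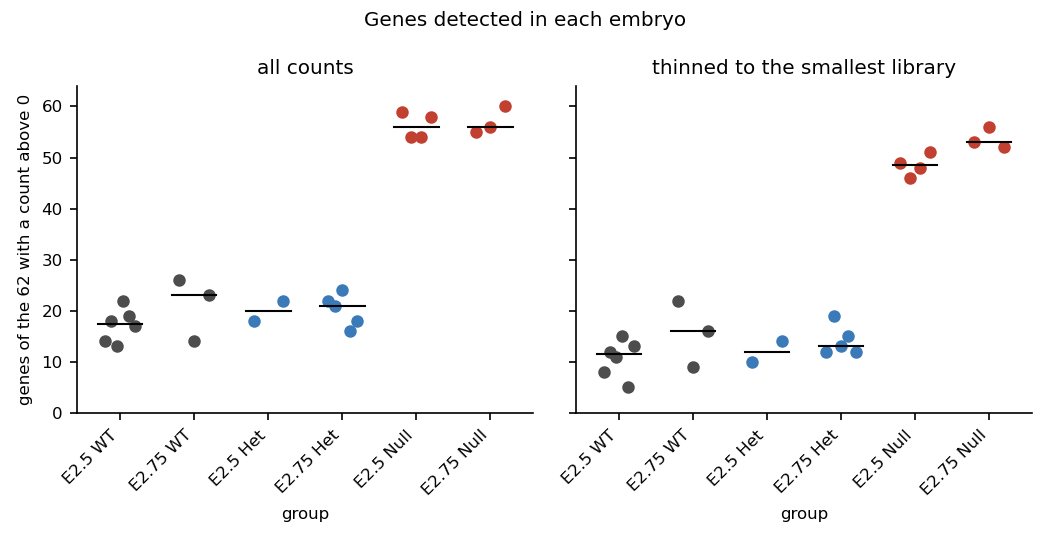
Number of the 62 genes with a count above 0 in each embryo (points), by stage and genotype, from all counts (left) and after thinning every library to 1690192 counts (right); lines mark group medians. The 7 Null embryos lie at 54 to 60 genes against 13 to 26 in the 16 others, a gap that the selection made.

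Of the 62 genes, 24 had counts in all 7 Null embryos and 38 in 6. Their median level over the Null embryos ran from 0.169 to 16.1 CPM, with 46 genes at 1 CPM or more. Full absence from the other embryos was rare. Only *H2-M10.6*, a class I molecule of the vomeronasal organ, had no count in any of the 16, and 34 genes had counts in 6 or 7 of them. All 7 Null embryos lay above all 16 others for 6 genes, namely *Mpig6b*, *Clec11a*, *Kcnq5*, *Fcrl5*, *Klhl35* and *Mapk8ip2* (9.68%), beside 0.129% of all spliced genes. This contrast chose the genes, and nothing is read from the count. For 8 genes the highest of the 23 libraries was a WT or Het embryo. An example was *Lgals4*, a galectin of the gut, which reached 11.4 CPM in E2.5 WT replicate 2 and no more than 1.02 CPM in a Null embryo.

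**Figure D2:**
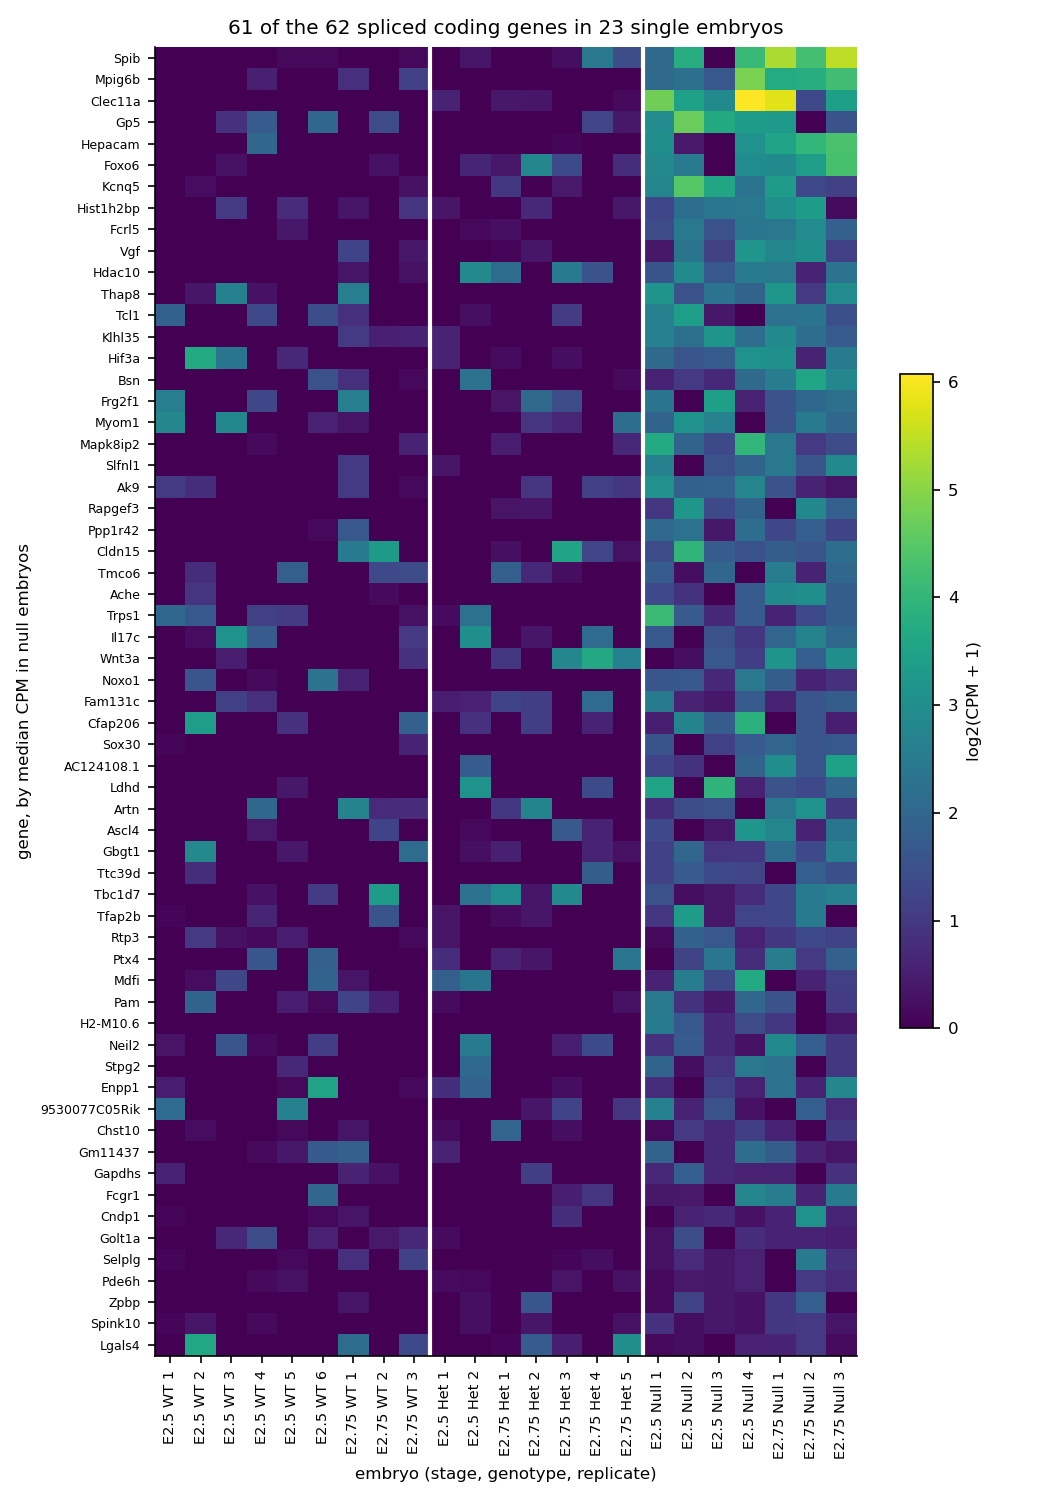
TMM-scaled level, as log2(CPM + 1), of 61 of the 62 genes (rows, ordered by median in the Null embryos) in 23 single embryos (columns, by genotype and stage). The Null columns are filled almost throughout by the selection, and single WT or Het embryos show isolated high values, such as 11.4 CPM of *Lgals4*.

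Fold changes and calls were computed with edgeR (quasi-likelihood test), with p-values adjusted after Benjamini and Hochberg across every gene that was tested. A call needed a log2 fold change over 1 and an adjusted p under 0.1. Of the 62 genes, 26 passed the filter on low counts in the comparisons of genotypes, and a gene could pass it through its Null counts alone. Against Het embryos, 10 of the 26 were called higher in Null embryos, beside 493 of 13415 genes tested (3.67%). Against WT embryos it was also 10 of 26, beside 491 of 13415 genes (3.66%), and 6 genes were called in both. The 26 genes had a median log2 fold change of 2.62 against Het and 2.77 against WT, where the median over all genes was 0.02 and -0.02. The selection used the same contrast, so nothing is read from these counts, and both comparisons share the Null embryos. Without E2.5 WT replicate 6, 10 and 9 of the genes were called.

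The strongest of the 62 genes were genes of blood and immune cells. By their known tissue, 7 of the 62 were placed in this class, with median Null levels from 0.467 to 16.1 CPM.
*Spib*, an ETS transcription factor of B cells and plasmacytoid dendritic cells, had the highest median. Its levels in the E2.5 Null embryos were 3.31, 12.8, 0 and 16.1 CPM and in the E2.75 Null embryos 38.2, 18.3 and 43.4 CPM. The WT embryos stayed at or below 0.103 CPM, and the Het embryos reached 4.42 CPM, so that the Null embryos at 0 and 3.31 CPM lay inside the range of the others. The fitted log2 fold change was 4.34 (SE 1.19) against Het and 8.45 (SE 1.32) against WT.

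*Mpig6b*, an inhibitory receptor of megakaryocytes and platelets, was found in all 7 Null embryos, with 3.31, 3.72, 2.13 and 27.8 CPM in the E2.5 and 12.2, 12.7 and 17.5 CPM in the E2.75 embryos. Of the WT embryos, 3 had counts, up to 1.21 CPM, and no Het embryo had any. *Gp5*, a membrane glycoprotein of platelets, was at 6.62, 24.8, 11.8 and 9.11 CPM in the E2.5 Null embryos and at 8.81, 0 and 1.92 CPM at E2.75. Its WT and Het levels reached 3.09 CPM, in E2.5 WT replicate 6, and overlapped the lower Null embryos.
*Clec11a*, a growth factor of the bone marrow, was at 26.0, 10.1, 6.38 and 66.3 CPM in the E2.5 Null embryos and at 54.3, 1.52 and 9.76 CPM at E2.75. It had no count in the 9 WT embryos and at most 0.490 CPM in the Het embryos, so the groups did not overlap, yet the Null embryos spread over more than an order of magnitude. *Fcrl5*, an Fc receptor-like protein of B cells, varied least among these, from 1.66 to 6.60 CPM with a mean of 3.67 ± 1.76 (SD, n = 7). No WT or Het embryo had more than 0.307 CPM of it. *Fcgr1*, the high-affinity IgG receptor of monocytes, and *Selplg*, the selectin ligand of leukocytes, were weak, with Null medians of 0.508 and 0.467 CPM and ranges that overlapped those of the other embryos.

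In the list of 14 blood genes, *Mpig6b* was the only one of the 62. Without it the summed level of the list was 0 to 10.7 CPM in Null embryos, 0.512 to 10.8 in WT and 1.16 to 7.25 in Het embryos. *Hbb-bs*, *Hbb-bt*, *Lyz2* and *Pf4* had no count in any embryo, and *Ptprc*, the pan-leukocyte marker, had 4 counts in 1 Null embryo. Of the red-cell genes with counts, *Hba-a1* had 97 in the WT, 31 in the Het and 21 in the Null embryos, and *Alas2* 76, 51 and 5. Of the platelet genes, *Itga2b* had 85, 91 and 27 counts and *Gp9* 0, 30 and 2. These counts are sums over 9 WT, 7 Het and 7 Null embryos and are not scaled to the library totals. Scaled to CPM, the medians in WT, Het and Null embryos were 0.22, 0.35 and 0.49 for *Itga2b* and 0 in each for *Gp9*. They were 0.26, 0.53 and 0 CPM for *Hba-a1* and 0.22, 0.39 and 0 CPM for *Alas2*.

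**Figure D3:**
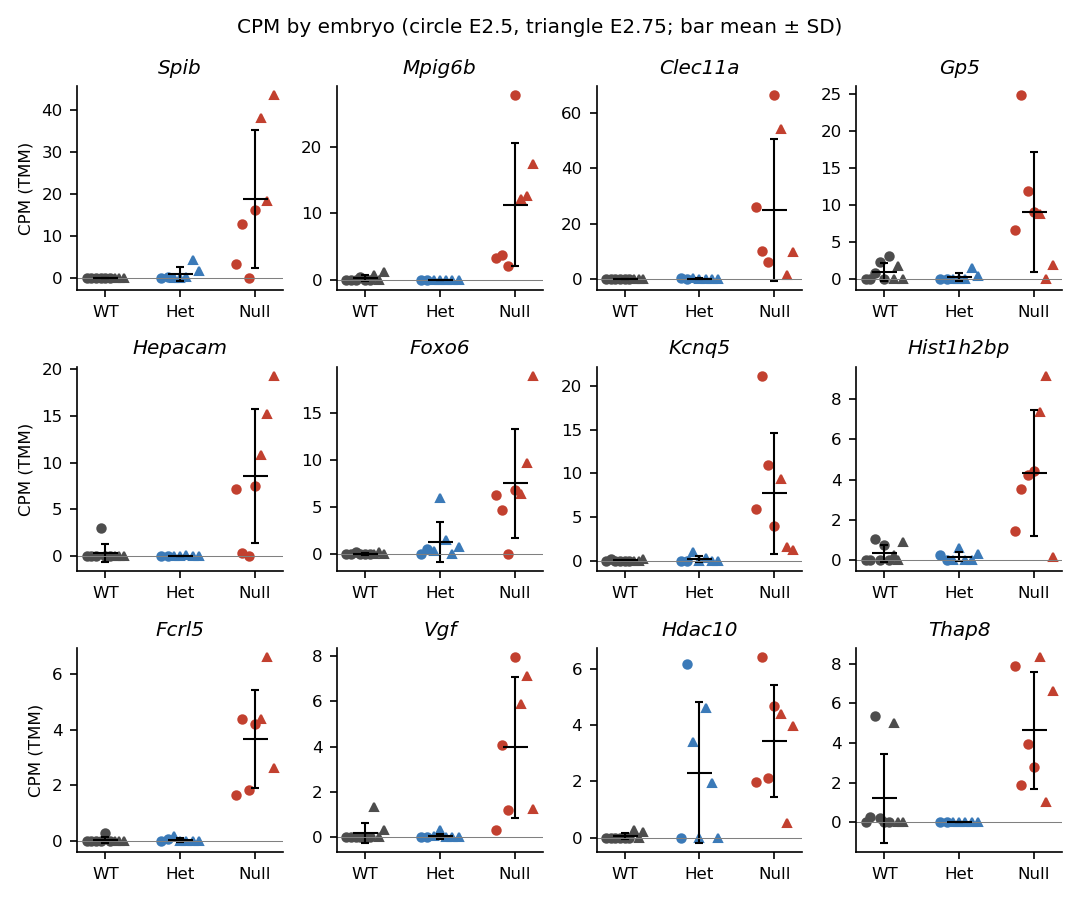
TMM-scaled CPM of the 12 genes with the highest median in Null embryos, by genotype (9 WT, 7 Het, 7 Null), with circles for E2.5, triangles for E2.75 and bars for the mean ± SD. The axis differs between panels, and *Clec11a* reached 66.3 CPM in 1 Null embryo. Only for *Mpig6b*, *Clec11a*, *Kcnq5* and *Fcrl5* do all Null embryos lie above all others, in a contrast that chose the genes.

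Of the 62, 11 were genes of the nervous system or retina, with median Null levels from 0.338 to 7.47 CPM.
*Hepacam*, an adhesion protein of glia, was at 7.14, 0.338, 0 and 7.47 CPM in the E2.5 Null embryos and at 10.8, 15.2 and 19.2 CPM at E2.75. Elsewhere it had counts only in E2.5 WT replicate 4, at 2.99 CPM, and in 1 Het embryo. *Foxo6*, a forkhead factor of the brain, ranged from 0 to 18.8 CPM in Null embryos with a mean of 7.52 ± 5.78 (SD, n = 7). Its Het embryos reached 5.98 CPM, whereas no WT embryo exceeded 0.222 CPM. *Kcnq5*, a potassium channel of neurons, had 5.90, 21.1, 10.9 and 3.97 CPM in the E2.5 and 9.30, 1.52 and 1.24 CPM in the E2.75 Null embryos. All 7 Null embryos lay above the other embryos, whose highest value was 0.967 CPM.
*Vgf*, a neuropeptide precursor, ranged from 0.310 to 7.94 CPM in Null embryos against at most 1.32 CPM in the others. *Mapk8ip2*, a JNK scaffold of neurons, ran from 1.02 to 15.2 CPM against at most 0.631 CPM. *Bsn*, a scaffold of the presynaptic zone, ran from 0.517 to 11.2 CPM and overlapped a Het embryo at 3.88 CPM. *Ache*, which breaks down acetylcholine, *Artn*, a ligand of the GDNF family, *Pam*, which amidates neuropeptides, *Chst10*, a sulfotransferase, and *Pde6h*, a subunit of cone phosphodiesterase, had Null medians from 0.338 to 2.33 CPM.
None of the 16 nervous-system markers was among the 62. Their summed level was 32.2 to 172 CPM in Null, 32.3 to 125 in WT and 30.7 to 95.5 in Het embryos, most of it from *Grin1*. *Rbfox3* and *Stmn2* had no count in any embryo. *Syp* had 406 counts in the WT, 417 in the Het and 21 in the Null embryos. *Syt1* had 68, 29 and 24, and *Snap25* 5, 0 and 87, the last all in 1 Null embryo. These counts too are sums that are not scaled to the library totals. The median of *Syp* was 2.1 CPM in WT, 5.7 in Het and 0.51 in Null embryos, and those of *Syt1* and *Snap25* were 0 in each.

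Another 7 of the 62 are known from sperm and cilia, at medians from 0.304 to 2.7 CPM. *Ak9*, an adenylate kinase, ran from 0.275 to 7.34 CPM in Null embryos, and *Ppp1r42*, a leucine-rich repeat protein of the testis, from 0.304 to 3.89 CPM, without a count in Het embryos. *Sox30*, a factor of spermatids, had 1.97, 0, 1.21 and 2.34 CPM in the E2.5 and 2.94, 2.03 and 2.2 CPM in the E2.75 Null embryos, with at most 0.505 CPM in 2 WT embryos and none in Het. In all 7 genes, which include *Cfap206*, *Stpg2*, *Gapdhs* and *Zpbp*, the Null embryos overlapped with the others. *Ak9* reached 1.24 CPM in a Het embryo and *Ppp1r42* 2.11 CPM in a WT embryo. *Zpbp*, an acrosomal protein, was the only one of the 16 testis markers among the 62, and the summed level of the list without it was 3 to 25.0 CPM in Null, 1.55 to 18.5 in WT and 0.979 to 8.07 in Het embryos, with medians of 11.2, 4.20 and 4.95 CPM. *Akap4*, *Pgk2* and *Acr* had no count anywhere. *Ldhc* had 121 counts in the WT, 0 in the Het and 132 in the Null embryos, and *Tssk1* 1, 0 and 47, again not scaled to the library totals. *Ldhc* had counts in 6 WT and 3 Null embryos, at up to 10.84 and 20.95 CPM, and *Tssk1* in 1 WT and 2 Null embryos. *Tssk6* had counts in 7 WT, 6 Het and 7 Null embryos, at medians of 1.63, 2.45 and 2.59 CPM. What part such marker genes had in the levels of the 62 genes was not tested.

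Developmental regulators made up 6 of the 62. *Wnt3a*, a Wnt ligand of the gastrulating embryo, ranged from 0 to 7.83 CPM in Null embryos but reached 11.7, 6.02 and 5.36 CPM in 3 Het embryos of E2.75. *Trps1*, a GATA-type repressor of cartilage and hair, ran from 0.489 to 16.8 CPM in Null embryos, the highest in E2.5 Null replicate 1. It reached 3.09 CPM in WT and 3.88 CPM in Het embryos. *Tfap2b*, *Ascl4* and *Mdfi* had Null medians from 1.24 to 1.55 CPM, and their ranges overlapped those of the other embryos. Epithelia, gut, liver and kidney supplied 7. Among them, *Cldn15*, a tight-junction protein of the intestine, was at 1.66 to 14.7 CPM in Null and up to 10.7 CPM in Het embryos. *Noxo1*, an organizer of the colon's NADPH oxidase, was at 0.508 to 4.44 CPM in Null and up to 3.96 CPM in WT embryos. Skeletal and heart muscle gave 1, *Myom1* of the sarcomeric M band, which ranged from 0 to 7.60 CPM in Null embryos and reached 6.17 CPM in WT.

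The remaining 23 were not assigned to a tissue. *Hist1h2bp*, a replication-dependent histone H2B gene, had a median of 4.25 CPM, and per kilobase of exon it was the highest of the 62, at 6.02 CPM per kb, next to *Spib* at 5.62 and *Mpig6b* at 5.14. Histone H2B and *H2-M10* genes have near-identical copies, so their counts are uncertain. *Klhl35* was above the other embryos in all 7 Null embryos, at 2.34 to 7.89 CPM against at most 1.06 CPM. *Tcl1*, an activator of AKT signalling that the early embryo is known to use, ran from 0 to 9.46 CPM and reached 2.68 CPM in WT embryos. *Hif3a*, a relative of the hypoxia factors, ran from 0.508 to 7.71 CPM in Null embryos but stood at 12 CPM in E2.5 WT replicate 2. *Hdac10*, a polyamine deacetylase, *Thap8*, *Frg2f1*, *Slfnl1*, *Rapgef3*, a cAMP-activated exchange factor, and *Tmco6* had Null medians from 2.38 to 3.99 CPM.

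Near the limit of the rule, the 5 strongest genes with counts in 6 Null embryos were *Spib*, *Gp5*, *Hepacam*, *Foxo6* and *Tcl1*, at medians from 3.91 to 16.1 CPM. The 5 strongest that missed it with counts in 5 Null embryos were *Dcst1*, *Colq*, *Mgat4e*, *Bbs10* and *Tekt5*, at 3.50 to 6.85 CPM. On the other side of the rule, *Fgfbp3*, *Nlrp9c*, *Nupr1l*, *Adgrb1* and *Gxylt2* were found in all 7 Null embryos at 8.79 to 20.1 CPM but had a median count of 0.5 or 1 in the WT and Het embryos. In all, 38 silent genes were found in 6 Null embryos, 133 in 5 and 206 in 4.

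The rule pooled Het and WT embryos and so did not choose genes by the difference between them. It did cap how many of the 16 could hold counts, and genes could pass the filter through Null counts, so the test is given with that limit. Of the 26 genes tested, none was called by edgeR, as of all 13415 genes (0%). The median log2 fold change was -0.01 over the 26 and -0.03 over all genes, with 13 genes higher and 13 lower. At an unadjusted p under 0.05, 6 of the 26 were higher and 4 lower in Het, beside 934 of the 13415 genes, and DESeq2 called 3. *Hdac10* had the lowest adjusted p of the 26, 0.422 by edgeR. It was at 0, 6.19, 3.42, 0, 4.62, 1.94 and 0 CPM in the Het embryos and at no more than 0.264 CPM in WT, with counts in 2 of 9. Its log2 fold change, Het over WT, was 5.28 (SE 1.23), and DESeq2's adjusted p was 0.00524. *Foxo6* was higher in Het by 4.43 (SE 1.19; edgeR adjusted p = 0.537; DESeq2 adjusted p = 0.0384). *Thap8*, without a count in Het, was at 5.35 and 5.02 CPM in 2 WT embryos (edgeR adjusted p = 0.537; DESeq2 adjusted p = 0.0891). These 3 calls thus rested on a few embryos each, and edgeR made none of them.

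The stages of the Null embryos were compared next. The rule asked for counts in at least 6 of the 7 Null embryos, which removed any gene missing at 1 stage, and the counts of calls below are shaped by that choice. Of the 62 genes, 58 were tested in E2.75 against E2.5 Null embryos, and none was called by edgeR or DESeq2, beside 561 of 18677 genes (3.0%). No gene of the 58 had an unadjusted p under 0.05. The log2 fold changes, E2.75 over E2.5, had a median of 0.02 and ran from -2.89 to 2.78, with 29 genes on either side of 0. The embryos of both stages did not overlap for 7 genes, all of them tested (12.1% of 58), beside 11.9% of the 18677 genes tested, a share near the background. Of these, 6 were higher in every E2.75 embryo, namely *Spib*, *Hepacam*, *Bsn*, *Ache*, *Il17c* and *Wnt3a*, and *Ak9* was higher in every E2.5 embryo. *Spib* had a mean of 8.07 ± 7.64 CPM (SD, n = 4) in E2.5 and of 33.3 ± 13.3 CPM (SD, n = 3) in E2.75 embryos. Its log2 fold change was 2.04 (SE 1.41; edgeR adjusted p = 0.494). The standard errors of these genes, 1.41 to 2.2 on the log2 scale, leave room for several-fold differences, and similar levels at both stages are not shown.

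**Figure D4:**
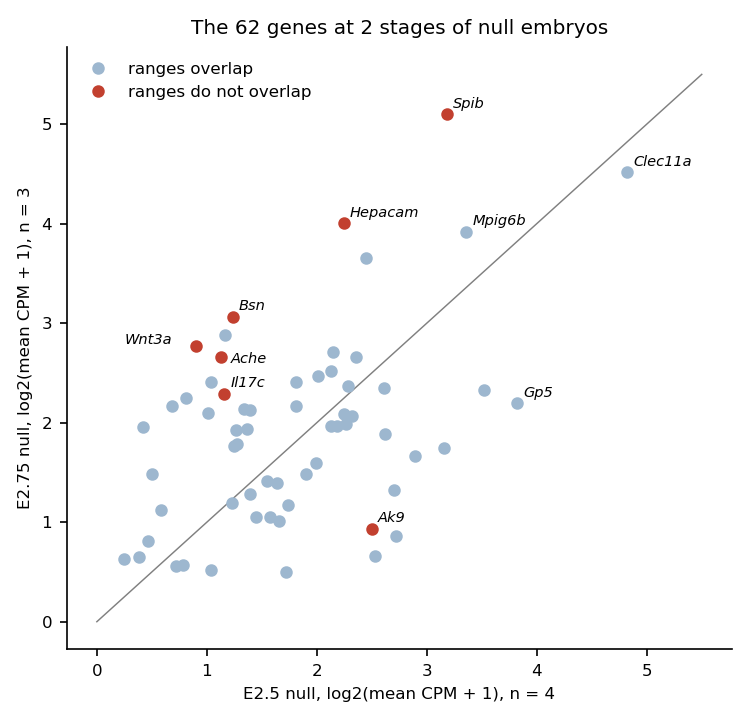
Mean level, as log2(CPM + 1), of the 62 genes in the 4 E2.5 Null embryos (horizontal axis) and the 3 E2.75 Null embryos (vertical axis), with the line of equal levels. The 7 red genes have ranges that do not overlap; none of the 58 tested genes was called between the stages.

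Neighbouring genes were compared by counting, with no test. A gene on the opposite strand overlapped 27 of the 62 genes (43.5%), against 32.4% of the 7668 other spliced genes with a median of 0 in WT and Het embryos and 39.7% of all spliced genes. Counting only neighbours active in the embryo, with a median of at least 1 CPM over the 16 WT and Het embryos, the shares were 12 of 62 (19.4%), 5.26% and 13.3%. Exonic bases were shared with the active gene on the other strand in 9 of these 12. *Noxo1* shared 70.4% of its exonic bases with exons of other genes, chiefly *Tbl3*, a gene of ribosome assembly at 752 CPM (median, n = 9) in WT and 812 CPM (median, n = 7) in Null embryos. It also started 78 bases from *Gfer* on the other strand. *Ldhd* shared 42.1% of its exonic bases, with the ubiquitin ligase gene *Znrf1*, *Thap8* 10.9% with *Wdr62*, and *Rtp3* 39.2%. Reads wholly inside shared exons were left out by the counting mode, so the counts of these genes come from their other exonic bases, and the strand of those reads is not known. At the other end, *Mpig6b* shared 0.924% of its exonic bases with *Ly6g6c*, which was not active, and *Spib*, *Gp5*, *Hepacam* and *Foxo6* shared none.

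For 29 of the 62 genes (46.8%), a gene on the same strand ended within 10 kb upstream of the start or overlapped the gene. The share was 39.5% of the other silent genes and 44.4% of all spliced genes. An active gene ended within 10 kb upstream of 10 of the 62, and in 2 more, *Pam* and *Kcnq5*, an active gene lay within the gene on the same strand. The share of these 12 was 19.4%, against 10.5% and 16.5%. The gaps were 382 bases from *Fis1*, a mitochondrial fission gene, to *Cldn15*, 675 from *Pold1*, the catalytic subunit of DNA polymerase delta, to *Spib*, 1607 from *Ech1* to *Lgals4*, 1644 from *Atp13a3* to *Gp5* and 2045 from the Polycomb gene *Scmh1* to *Slfnl1*. Those to *Il17c*, *Neil2*, *Golt1a* and *Selplg* were 4660 to 9792 bases, from *Zc3h18*, *Gata4*, *Plekha6* and *Coro1c*.
The levels of these 10 upstream genes in Null embryos overlapped those in WT and in Het embryos. *Pold1* had a median of 85.7 CPM in WT, 153 in Het and 105 in Null embryos, *Atp13a3* of 551, 440 and 579 CPM, and *Fis1* of 132, 134 and 85.8 CPM. Over the 30 active neighbours of all kinds, the log2 fold change of Null over Het embryos had a median of -0.05, with 14 higher and 16 lower. Of these, 1 was at least 1 on the log2 scale, *Tmem147os*, an antisense RNA gene over *Gapdhs*, at 1.44.

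A divergent active gene started within 10 kb upstream of 6 of the 62 (9.68%), against 4.69% of other silent genes and 12.1% of all spliced genes. Within 1 kb there were 4, namely *Noxo1*, *Ttc39d*, 153 bases from *Srsf7*, *Spink10*, 216 bases from *Fbxo38*, and *Ak9*, 720 bases from *Fig4*. Over all these kinds, 29 of the 62 genes (46.8%) had an active neighbour, against 18.0% of other silent genes and 35.4% of all spliced genes, and 33 had none. The median Null level was 1.96 CPM with and 2.03 CPM without one. *Mpig6b*, *Clec11a*, *Hepacam*, *Foxo6*, *Fcrl5* and *Vgf* were among those without one. Of all pairs of the 62, 9 lay within 1 Mb of each other, the closest being *Cldn15* and *Vgf*, 50.5 kb apart, and *Clec11a* and *Spib* were 219 kb apart.

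**Figure D5:**
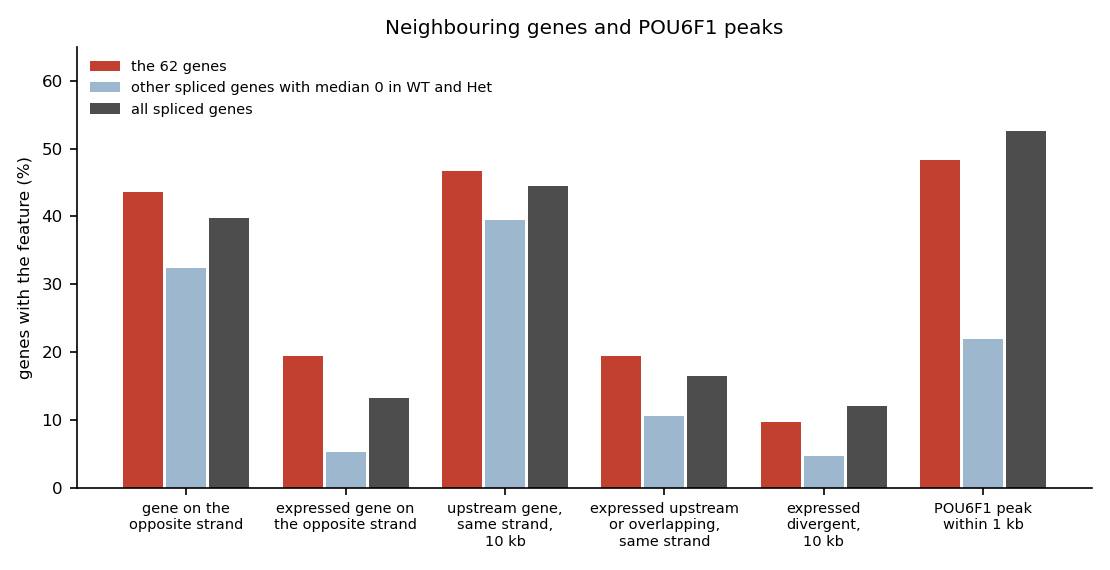
Percent of genes with each kind of neighbour, or with a POU6F1 peak within 1 kb of a start, among the 62 genes, the 7668 other spliced genes with a median of 0 in WT and Het embryos, and all 19374 spliced genes. For active genes on the opposite strand the shares were 19.4%, 5.26% and 13.3%, and for peaks 48.4%, 22.0% and 52.6%. The bars for an upstream gene also count genes that overlap on the same strand.

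POU6F1 peaks called in both mESC replicates, by an overlap of at least 1 base, lay within 1 kb of a start of 30 of the 62 genes (48.4%). The share was 22.0% of other silent genes and 52.6% of all spliced genes. Against the second of the 2 deposited lists of each replicate, which differ in the control, it was 8 of 62 (12.9%), against 3.16% and 17.2%. In 20 of the 30 the peak held an annotated start itself. The start of any annotated transcript counted, and some of those matched lay inside the gene, not at its 5′ end. Examples were *Vgf*, *Klhl35*, *Hif3a*, *Selplg*, *Rapgef3* and *Ache*. The fold enrichment over control, as the peak caller gave it, had a median of 11.4 in replicate 1 and 5.18 in replicate 2.
The strongest peaks lay at *Myom1*, with fold enrichments of 36.3 and 13.6, *Foxo6*, with 34.3 and 13.5, *Hif3a*, with 29.0 and 11.5, *Vgf*, with 25.8 and 7.51, and *Mapk8ip2*, with 22.9 and 10.4. The peak at *Mpig6b* was among the weaker ones, with 8.30 and 4.35, and covers the capitals of its sequence above, which hold the letters TTATCT, the other strand of AGATAA. *Spib*, *Clec11a*, *Gp5*, *Hepacam* and *Kcnq5* had no peak. The median Null level was 2.12 CPM over genes with a peak and 1.75 CPM over those without. The peaks are from stem cells with added POU6F1, and whether the protein binds these starts in embryos was not measured.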

How the data were processed

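RNA-seq was done on 23 single embryos and ChIP-seq on transfected mESCs. The authors trimmed reads with Cutadapt 3.4, aligned them with STAR 2.7.8a to GRCm38 and counted them with HTSeq 0.11.4 in its intersection-strict mode without strand, and they deposited raw counts per gene. That mode leaves out reads that lie wholly in bases shared by 2 genes, which lowers the counts of overlapped genes. For ChIP-seq, the authors used Bowtie2 2.4.4 and MACS2 2.2.7.1 in each replicate. The deposited peak lists hold a score, a fold enrichment as a ratio to the control, and −log10 p and q values. The lists do not name their control. In the paper's supplement, the first calls of each replicate are against IgG and the second against cells with mCherry alone.

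The members, marker lists, tissue classes and tests were chosen with earlier results of these data known. Counts were tested with edgeR 4.0.16 (R 4.3.3, quasi-likelihood, TMM, filterByExpr), stages pooled by genotype in the 3-genotype fit and 6 groups in the stage fit. DESeq2 1.42.0 was an alternative. The test script was checked on simulated data. Calls needed an absolute log2 fold change over 1 and an adjusted p under 0.1. Peaks of both replicates were intersected with a minimum overlap of 1 bp, and starts were those of GENCODE vM21, whose build is that of the files. Genes are named as the 25 with the highest median Null CPM, up to 10 with an upstream neighbour within 10 kb, up to 10 with a peak within 1 kb, members of a marker list and those nearest to the rule's limits. Others are named where a tissue class, a count or a neighbour singles them out, chosen after their values were seen. Tissue classes follow textbook knowledge, and 39 of 62 genes were classed. The values of 1 of the 62 genes are not reported here, though counts and ranges over the set include it. Library totals ran from 1690192 to 14015980, and a count of 0 allows up to 3 counts. Alternatives were no filter, spike-in scaling, leaving out each embryo, the replicate block, and other limits of the rule, distances and peak lists.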

Additional observations from a re-analysis of the deposited data

Results flagged for a closer look

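In the 7 Null embryos, the highest or lowest value of each of the 25 strongest genes was compared with the others by Dixon's test at the 95% level, which chance passes in about 1 of 20 groups. Of the 25 groups tested, 2 passed. *Cldn15* stood at 14.7 CPM in E2.5 Null replicate 2, against a group median of 2.43 CPM. *Frg2f1*, which overlaps the active gene *Foxj3* on the other strand, stood at 9.72 CPM in E2.5 Null replicate 3, against a group median of 3.05 CPM.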

How the results depend on the processing

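The set itself depended on its limits. Requiring counts in all 7 Null embryos left 24 genes, counts in at least 5 gave 195, a median of 0 over the 9 WT embryos alone gave 114, and a count of at least 3 in Null embryos left 29. Thinning every library to the smallest total gave 100 genes, 41 of them shared with the 62. Leaving out 1 embryo in turn, with 1 Null embryo allowed to lack counts, gave 75 to 125 genes. None of the 62 could drop out under these limits, so that all were kept says nothing about their stability. The number of genes was over 1.5 times as large without E2.5 Null replicates 1, 2 or 3 (101, 104 and 125). The same held without E2.75 Null replicates 1 or 2 (100 and 97). Without E2.5 WT replicate 6 it was 76. Genes called higher in Null than in Het embryos numbered 21 without the filter on low counts and 26 with DESeq2, against 10, and 9 to 16 with 1 embryo left out, with 16 without either E2.5 Het replicate 1 or E2.5 Het replicate 2. Against WT embryos they numbered 23 without the filter and 23 with DESeq2, and 9 to 13 with 1 embryo left out. Het against WT gave 3 calls with DESeq2 and 0 to 0 with 1 embryo left out, and the Null stages 0 to 0. Scaling to the spike-ins, under which the median over all genes of the log2 fold change was -1.08 (Null over Het), -0.37 (Null over WT), 0.71 (Het over WT) and 0.97 (E2.75 over E2.5 Null), gave 11, 8, 0 and 0 calls. Same-numbered embryos did not deviate together, with correlations of -0.117 to 0.07, so the numbers do not pair them, and a fit with the replicate block gave 9, 11, 0 and 0 calls. Counting shared exons in place of gene bodies left 17 genes overlapped on the opposite strand. A distance of 50 kb gave 48 genes with an upstream or overlapping gene on the same strand. The second peak lists and a −log10 q of at least 10 in both replicates left 8 and 10 genes with a peak. Many of the 62 genes rest on a few counts per embryo, and the depth of the shallowest Null libraries limits the precision of their levels.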
